A study of Mus musculus with 9 samples.

Results

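Inflammasome effectors and interleukin-1 family genes were followed in large intestinal cells from mouse colon. The fixed list held 10 members, Pycard, Casp1, Casp4, Gsdmd, Il1a, Il1b, Il18, Il1rn, Nek7 and Txnip. All were matched by symbol in the gene table of 17511 genes that the authors deposited. The Cdx2 and open chromatin peaks at their loci were read as well. Inflammasomes are cytosolic platforms in which a sensor recruits the adaptor ASC (the product of Pycard), which in turn activates the protease caspase-1. Active caspase-1 matures the cytokines IL-1β and IL-18 and cleaves gasdermin D, which then forms membrane pores. In the gut, IL-18 is made largely by epithelial cells, IL-1β is known mainly as a product of myeloid cells, and the receptor antagonist encoded by Il1rn blocks the IL-1 receptor.

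The study's samples came from large intestinal cells that were loosened from fresh mouse colon with EDTA and strained. In RNA-seq and ATAC-seq, the groups labelled DKO carried Cdx1-/-Cdx2f/f alleles with the tag vill (+). Those labelled Wt carried the same Cdx1-/-Cdx2f/f alleles with the tag vill (-). Both groups were tamoxifen treated, for 6 days by the protocol. The Cdx1 null allele is therefore given for both groups, and the labels name neither the promoter nor the recombinase behind the tag, nor the animals' ages. RNA-seq was run on 2 DKO and 2 Wt libraries, ATAC-seq (a transposase assay of open chromatin) on another 2 and 2, and Cdx2 ChIP-seq on 1 Wt library tagged untreated. Nothing in the labels ties replicates to separate animals, so the spread behind a p-value may be purely technical.

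Estimated reads in RNA libraries came to 21197446 and 20069555 for DKO, against 16403301 and 25494309 for Wt. There were 40101 and 23961 ATAC peaks in the DKO lists, against 48163 and 53943 in the Wt lists, and the Cdx2 list held 5100 peaks on assembled chromosomes. The targeted gene Cdx2 differed by -0.27 ± 0.21 (log2 fold change, DKO over Wt, ± the SE that the authors gave, here and below) with an adjusted p of 0.301 by the authors' deposited table, and Cdx1 by -1.06 ± 0.23 with an adjusted p of 2.08e-05, so the gene total of Cdx2 gives no check of the DKO label. Cdx1 RNA was listed at a mean normalized count of 2595 in the authors' deposited table and differed between the groups, which goes against the Cdx1-/- alleles labelled for both. A gene total does not show whether those reads came from an intact transcript, and DKO and Wt below stand for the libraries labelled so. Epithelial markers such as Epcam and Krt8 were abundant, with mean normalized counts of 11757 to 159960 over the 10 markers in the authors' deposited table. Of these, 2 were higher and 3 lower in DKO, 50% in all, against 36.8% of all genes called in either direction. The 12 markers of stroma, muscle and endothelium all fell in DKO by the authors' deposited table, with log2 fold changes of -8.18 to -1.49. Over all genes, 18.3% were called lower. In bulk libraries, fewer cells of a type and less RNA per cell cannot be told apart.

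The starts of 6 genes are shown because the RNA and open chromatin results below differ between them: Casp1 and Casp4 are adjacent genes of which one fell, Il1rn rose while its Wt start region was missing from both DKO lists, and Il1a, Il1b and Txnip rose from starts with and without an ATAC region. Each line gives the 250 bases before a start in the RefSeq promoter table, 5′ to 3′ on the gene's own strand. The sequence is from RefSeq's GRCm38.p6 (the assembly of mm10). Where the table gives several starts, the one nearest the 5′ end of the gene's span was used. For Il1a and Il1b that start lies inside the span, so most of the Il1a window and a small part of the Il1b window overlap the gene itself. Capitals mark matches on either strand to TTTATG or TTTATT (the core of Cdx sites), an NF-kB type site (GGG, any 2 bases, TT, any 1 base and CC), TATAAA (the TATA box) and CACGNG repeated after 5 bases (the layout of a carbohydrate response element).
Casp1: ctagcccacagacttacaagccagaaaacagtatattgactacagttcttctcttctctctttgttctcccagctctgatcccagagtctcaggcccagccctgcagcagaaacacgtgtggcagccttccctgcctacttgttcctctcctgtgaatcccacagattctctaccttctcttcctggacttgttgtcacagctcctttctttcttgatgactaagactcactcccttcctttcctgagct
Casp4: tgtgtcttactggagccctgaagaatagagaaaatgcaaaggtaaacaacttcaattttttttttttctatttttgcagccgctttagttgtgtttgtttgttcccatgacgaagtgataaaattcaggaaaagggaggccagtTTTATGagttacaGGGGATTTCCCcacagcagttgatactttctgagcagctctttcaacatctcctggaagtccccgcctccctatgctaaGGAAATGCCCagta
Il1rn: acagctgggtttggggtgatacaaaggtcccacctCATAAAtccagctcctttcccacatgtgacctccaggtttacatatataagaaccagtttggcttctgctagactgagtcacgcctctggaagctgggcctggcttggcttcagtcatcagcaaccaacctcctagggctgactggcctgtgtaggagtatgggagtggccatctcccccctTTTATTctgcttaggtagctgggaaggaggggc
Il1a: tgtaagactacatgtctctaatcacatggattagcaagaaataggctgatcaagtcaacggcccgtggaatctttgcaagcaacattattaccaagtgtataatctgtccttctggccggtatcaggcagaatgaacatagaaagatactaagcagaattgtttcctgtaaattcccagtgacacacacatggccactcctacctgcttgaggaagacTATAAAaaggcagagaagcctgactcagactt
Il1b: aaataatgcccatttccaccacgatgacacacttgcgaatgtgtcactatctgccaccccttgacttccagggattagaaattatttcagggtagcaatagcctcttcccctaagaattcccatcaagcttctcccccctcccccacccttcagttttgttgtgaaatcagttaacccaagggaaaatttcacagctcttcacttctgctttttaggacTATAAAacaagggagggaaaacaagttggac
Txnip: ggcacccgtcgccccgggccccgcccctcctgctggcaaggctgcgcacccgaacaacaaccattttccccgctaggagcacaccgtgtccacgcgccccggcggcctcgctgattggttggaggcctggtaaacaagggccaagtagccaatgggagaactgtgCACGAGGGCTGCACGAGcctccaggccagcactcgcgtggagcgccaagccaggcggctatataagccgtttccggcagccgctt

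These windows lie at chr9:5298267-5298516 (Casp1, plus strand), chr9:5308599-5308848 (Casp4, plus), chr2:24336610-24336859 (Il1rn, plus), chr2:129309973-129310222 (Il1a, minus), chr2:129371140-129371389 (Il1b, minus) and chr3:96557707-96557956 (Txnip, plus). Of the 10 genes, 9 had an entry in the RefSeq promoter table, and Gsdmd had none. TTTATG was found in 2 of the 9 windows, at -106 to -101 in Casp4 and on the other strand at -215 to -210 in Il1rn, counting back from the start, against 10.8% of 32817 promoter windows of this length. TTTATT was found in Il1rn, at -33 to -28, and in Il18, against 18.1% of windows. The NF-kB type letters occurred in 1 of the 9 windows, that of Casp4, with 2 overlapping matches at -93 to -83 and 1 on the other strand at -14 to -5, against 4.11% of windows. Il1a and Il1b each held TATAAA close to the start, at -32 to -27 and -31 to -26, and Il18 held it on the other strand, against 12.4% of windows. The repeated CACGNG was found in Txnip alone among the 9, at -85 to -69, and in 0.0457% of windows. Txnip is a textbook target of glucose-sensing factors that bind such an element. The Casp1 window held none of these 5 motifs, which says only that their letters are not in this window.

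The first question was which genes of the pathway differed in RNA between the libraries labelled DKO and Wt. At an adjusted p under 0.05, 5 members were called higher in DKO and 2 lower by the authors' deposited table. The other 3 passed in neither direction. The activating side of the platform moved apart: the adaptor Pycard and the protease Casp1 fell, whereas the kinase Nek7 and the thioredoxin-binding protein Txnip rose. Among cytokines Il1b, Il1a and the antagonist Il1rn rose, while Il18 passed in neither direction. Over all genes, 18.5% were called higher and 18.3% lower by the authors' deposited table, 36.8% in all, so 7 of 10 members is above the share over the whole table, and no test of that difference was made. The members were chosen with earlier results of these data known, so their shares, here and below, are descriptive only. The median log2 fold change was 0.57 over the members and -0.02 over all genes in the authors' deposited table. The files do not pair transcripts with genes, so the values are those of the authors' fit over all 4 RNA libraries and no level per library can be given for a gene.

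**Figure D1:**
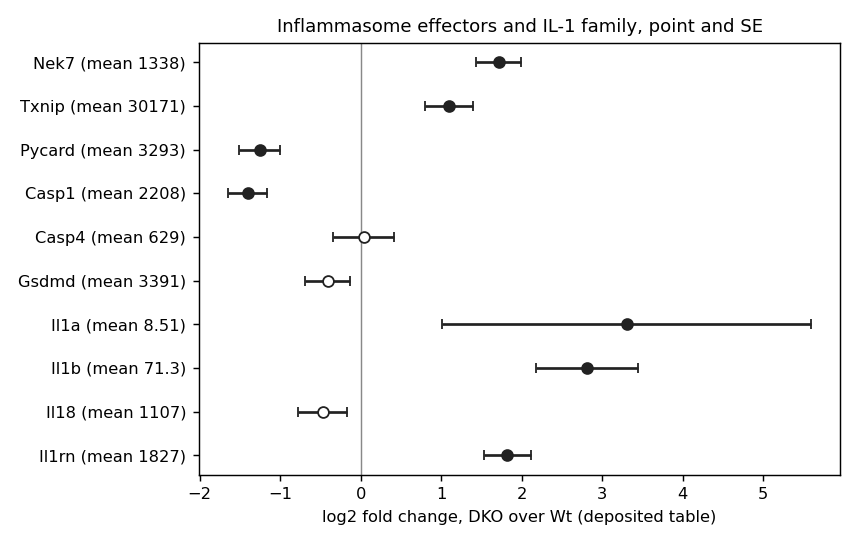
Log2 fold change of DKO over Wt (x axis) for each gene (rows, with its mean normalized count over all RNA libraries), from the authors' deposited table. Points are the deposited values and bars their SE, with filled points called at an adjusted p under 0.05. Casp1 (-1.40) and Pycard (-1.25) lie to the left, and Il1a (3.31) has the widest bar.

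Upstream of the platform, Nek7 (ENSMUSG00000026393) encodes a kinase that binds the sensor NLRP3 and is needed for its assembly. It was higher in DKO by a log2 fold change of 1.72 ± 0.28 with an adjusted p of 3.81e-09, or 3.29-fold, in the authors' deposited table, which lists it at a mean normalized count of 1338. Txnip (ENSMUSG00000038393) encodes an arrestin-family protein that binds thioredoxin, restrains glucose uptake and has been reported to bind NLRP3. It was higher in DKO by a log2 fold change of 1.09 ± 0.30 with an adjusted p of 0.000617, or 2.13-fold, at a mean normalized count of 30171 in the authors' deposited table. The span of the noncoding gene Gm15441 overlaps that of Txnip, and whether the counting used strand is not given in the sources used here, so reads of both genes may not be separable. Gm15441 had a log2 fold change of 1.02 ± 0.63 with an adjusted p of 0.101 in the authors' deposited table.

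The adaptor and protease genes went down. Pycard (ENSMUSG00000030793), whose product ASC joins sensors to caspase-1 through its pyrin and CARD domains, had a log2 fold change of -1.25 ± 0.26 with an adjusted p of 3.60e-06 at a mean normalized count of 3293 by the authors' deposited table, and thus 2.39-fold higher in Wt. Casp1 (ENSMUSG00000025888) had a log2 fold change of -1.40 ± 0.25 with an adjusted p of 5.19e-08 at a mean normalized count of 2208 in the authors' deposited table, 2.65-fold higher in Wt. Casp4 (ENSMUSG00000033538), the mouse gene for caspase-11, which senses intracellular lipopolysaccharide, starts 1568 bases downstream of the end of Casp1. Its log2 fold change was 0.04 ± 0.38 with an adjusted p of 0.953 at a mean normalized count of 629 in the authors' deposited table, with the bounds of 1 SE at -0.34 and 0.42. The difference between these neighbours was not tested. Gsdmd (ENSMUSG00000022575), whose product is cleaved by both caspases to open pores, had a log2 fold change of -0.41 ± 0.28 with an adjusted p of 0.231 at a mean normalized count of 3391 in the authors' deposited table and was not called.

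Among the cytokine genes, Il1b (ENSMUSG00000027398) was higher in DKO by a log2 fold change of 2.82 ± 0.63 with an adjusted p of 8.57e-06, or 7.04-fold, at a mean normalized count of 71.3 in the authors' deposited table. Il1a (ENSMUSG00000027399), which encodes an alarmin that is active without caspase-1 cleavage, had a log2 fold change of 3.31 ± 2.29 with an adjusted p of 0.0274 at a mean normalized count of only 8.51 in the authors' deposited table. Its deposited p of 0.00885 is smaller than the p of 0.149 that the deposited fold change and SE would give as a normal ratio, and for most genes in the table the fold change over its SE likewise fails to give the p, which points to folds shrunken towards 0. The call of Il1a is thus the least firm of the 7. Il1rn (ENSMUSG00000026981), the receptor antagonist, was higher in DKO by a log2 fold change of 1.82 ± 0.29 with an adjusted p of 2.05e-09, or 3.53-fold, at a mean normalized count of 1827 in the authors' deposited table. Il18 (ENSMUSG00000039217) had a log2 fold change of -0.47 ± 0.30 with an adjusted p of 0.193 at a mean normalized count of 1107 in the authors' deposited table. The spans of Bco2 and Tex12 overlap that of Il18, so with strand use unstated their reads may mix.

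Markers of other cell types moved beside these values, and their part in the changes of Il1b, Il1a and Il1rn was not tested. Of 13 neutrophil markers 12 were in the authors' deposited table, with 11 higher and 0 lower in DKO. The share called was 91.7%, against 36.8% of all genes. Their median log2 fold change was 3.61 and their summed mean normalized count 4714. Mmp9 was at 4.16 ± 0.66 and the calprotectin subunit S100a8 at 10.99 ± 2.13 on the log2 scale in the authors' deposited table. Stressed epithelium also makes both calprotectin subunits, and the Ly6g row, at a mean normalized count of 2958, belongs to a family of close copies. Ly6g, S100a8 (809) and S100a9 (625) hold most of the summed count, and no other neutrophil marker averaged above 85.8 (Il1r2). The 14 macrophage markers in the authors' deposited table split into 2 higher and 3 lower, with Cd14 at 2.16 ± 0.20, Lyz2 at -2.13 ± 0.27 and the complement gene C1qa at -2.40 ± 0.33, and a median of -0.09. With 35.7% called, the macrophage list was near the 36.8% of all genes. The authors' deposited table held 13 lymphocyte markers, with 3 higher and 3 lower in DKO, 46.2% in all against 36.8% of all genes. The plasma cell gene Jchain was at -3.61 ± 0.27 and the B cell gene Ms4a1 at -2.46 ± 0.87. Higher in the authors' deposited table were Ptprc, at 1.01 ± 0.31, and Gzma, at 1.44 ± 0.59. The levels in each group, and whether any marker was at 0 in a library, cannot be had from a table that gives a mean over all libraries.

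The rest of the pathway was read from lists written with earlier results of these data known. Of the sensors, 10 were in the authors' deposited table, with 1 higher and 2 lower in DKO. At 30% called, the sensors were called less often than all genes, at 36.8%. The colonic sensor Nlrp6 was at -2.68 ± 0.19, the DNA sensor Aim2 at 1.22 ± 0.22 and the needle protein co-sensor gene Naip1 at -1.21 ± 0.33 on the log2 scale in the authors' deposited table. Naip genes are close copies among which reads may be split. Nlrp3, the partner of Nek7, had a log2 fold change of 1.88 ± 1.78 with an adjusted p of 0.0578 at a mean normalized count of 8.77 in the authors' deposited table. Of 6 other ligands of the family only Il33 was in the table, at 0.69 ± 0.52 with an adjusted p of 0.215 in the authors' deposited table.

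For the 9 receptors and decoys of the family, 5 were higher and 1 was lower by the authors' deposited table, with a median log2 fold change of 0.71. The share called was 66.7%, against 36.8% of all genes, and this difference was not tested. The IL-18 receptor subunit gene Il18rap was at 4.53 ± 0.86 and the decoy receptor gene Il1r2, also a neutrophil marker here, at 3.79 ± 0.80 in the authors' deposited table. Il18rap had a mean normalized count of only 46.5. Il18r1, for the other IL-18 receptor subunit, was not called, at 0.62 ± 0.74 with an adjusted p of 0.366 and a mean of 34.9 in the authors' deposited table. Il18bp, which encodes a soluble trap of IL-18, was at 1.27 ± 0.46 and the accessory receptor Il1rap at 1.12 ± 0.43 in the authors' deposited table. The lower one, picked out after seeing its value, was the inhibitory receptor Sigirr, at -0.85 ± 0.31 in the authors' deposited table.

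For the 14 signalling genes below the receptor, 8 were higher and 1 was lower by the authors' deposited table, with a median log2 fold change of 0.74. The share called was 64.3%, against 36.8% of all genes, and this difference was not tested. The inhibitor of NF-kB Nfkbia was at 2.21 ± 0.23, the ubiquitin ligase Traf6 at 2.14 ± 0.24 and the adaptors Tab3 and Tab2 at 2.05 ± 0.38 and 1.07 ± 0.20 in the authors' deposited table. The lower one, picked out after seeing its value, was the kinase Irak4 at -1.12 ± 0.29 in the authors' deposited table. For 15 other regulators of the platform, 0 were higher and 5 lower by the authors' deposited table, with a median of 0.01. The share called was 33.3%, all of it lower, against 36.8% of all genes called in either direction and 18.3% called lower. These differences were not tested. Thioredoxin Txn1, the partner of Txnip, was at -0.83 ± 0.18, the ligase Trim31, which targets NLRP3, at -1.48 ± 0.45, the channel Panx1 at -0.87 ± 0.32 and the adaptor Fadd at -0.72 ± 0.27 in the authors' deposited table.

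**Figure D2:**
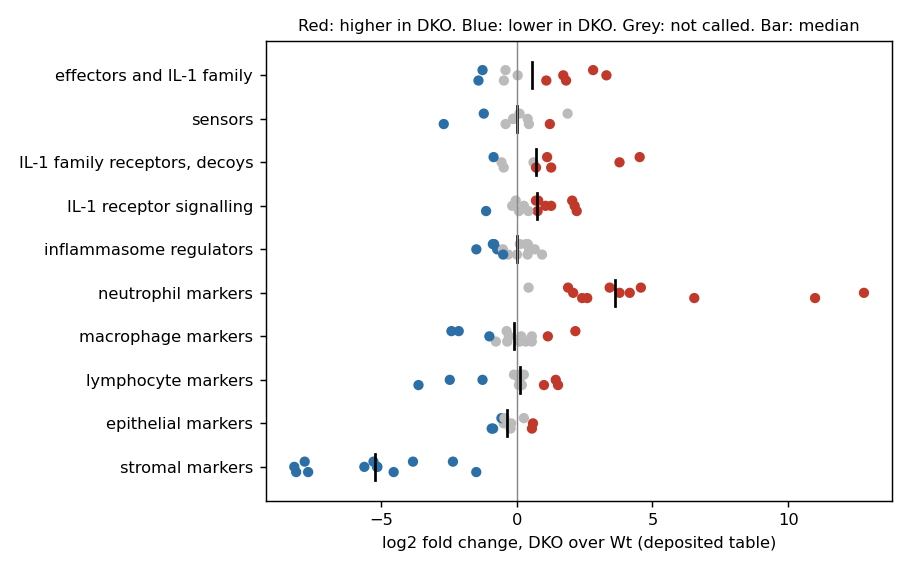
Log2 fold change of DKO over Wt (x axis) for the genes of each list (rows), from the authors' deposited table. Points are genes, coloured by call, and black bars are medians. Neutrophil markers lie to the right (median 3.61) and stromal markers to the left (median -5.20), with the effectors and IL-1 family between them (median 0.57).

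Open chromatin at the same genes was read from the ATAC peak lists, in which overlapping peaks of all 4 libraries were joined into regions. A region was called gained if it had peaks in both DKO lists and in no Wt list, lost if it had peaks in both Wt lists and in no DKO list, shared if all 4 lists had one, and mixed otherwise. Within 10 kb of the 10 spans there were 50 regions, of which 4 were gained, 23 lost, 1 shared and 22 mixed. The gained share was 8% and the lost share 46%, against 4.98% and 23.8% of the 106432 regions on the assembled chromosomes. The order of the gained shares turned when a DKO library was left out, to 12.5% at these genes against 17.7% of all regions without DKO replicate 1, and 12.5% against 33.6% without DKO replicate 2. The lost share was 74.4% at these genes without either Wt library, against 45.2% of all regions without Wt replicate 1 and 41.9% without Wt replicate 2. Shared and mixed regions made up 2% and 44%, against 3.54% and 67.7% of all. Restricted to peaks with a -log10 q of at least 5, the lost share was 56% at these genes (14 of 25 regions) and 45.2% over all regions. The DKO lists were shorter than the Wt lists, and depth or library quality behind list length cannot be told apart from the genotype here. Regions differ in being listed, which is no measure of how far accessibility differed, and 2 against 2 libraries cannot reach an exact p under 0.05.

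**Figure D3:**
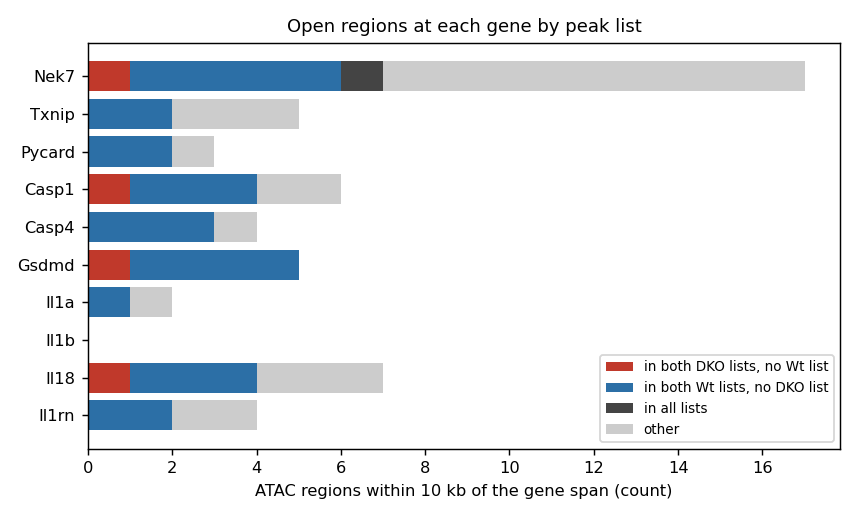
Number of ATAC regions within 10 kb of each gene's span (x axis), by the peak lists that hold them (colours), with genes in rows. Regions found in both Wt lists and no DKO list are present at every gene except Il1b, which has no region, and those found in both DKO lists and no Wt list are at Nek7, Casp1, Gsdmd and Il18.

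At gene starts the pattern was one of peaks listed in Wt and not in DKO, whichever way the RNA went. In the window from 250 bases before to 50 after a start, 7 of the 9 members with an entry held a lost region, against 34.9% of 12071 table genes with an entry. At Casp4, Il1rn and Txnip the Wt peaks had a -log10 q of at least 5 in both lists. Those at Casp1 (4.14 and 4.53), Pycard (3.10 and 4.74), Il1a (3.91 and 3.54) and Il18 (3.68 and 6.83) did not. The share of table genes under that cut was not computed. Over those genes the share was 28.6% where RNA was called higher, 37.1% where lower and 36.4% where not called. The only member with a start region in all 4 lists was Nek7, with a peak fold enrichment of 3.97 and 4.58 in the DKO lists and of 8.60 and 8.00 in the Wt lists, against a shared region at 20.9% of table genes. Fold enrichment is the authors' value for each peak and is not scaled between lists. Il1b held no region at its start or within 10 kb, as did 19.9% of table genes at their start. The Il18 start region, chr9:50554737-50555310, was centred 115 bases from the Bco2 start and 323 bases from the Il18 start. It overlapped the spans of both genes. Bco2 RNA was lower, at -1.57 ± 0.31 in the authors' deposited table, so this region cannot be assigned to Il18 alone.

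At the lower genes the start regions were listed in Wt alone, with fold enrichments like those at Txnip and Il1a, which rose. The median over all peaks was 4.95 in Wt replicate 1 and 4.88 in Wt replicate 2. The Casp1 start region, chr9:5298352-5298707, had no peak in either DKO list and peaks with a fold enrichment of 5.06 and 5.11 in Wt replicates 1 and 2. The Pycard start region, chr7:127993680-127993849, had no peak in DKO and 4.01 and 4.54 in Wt. The start region of Casp4, chr9:5308692-5308880, had no peak in DKO and 9.27 and 9.74 in Wt, although Casp4 RNA passed in neither direction. The Casp4 region covers the TTTATG and NF-kB type matches printed above.

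The genes that rose had the same listing at their starts, other than Nek7 and Il1b. The Il1rn start region, chr2:24336661-24336918, had no peak in DKO and fold enrichments of 8.06 and 7.01 in Wt, and a second region about a kilobase upstream, chr2:24335478-24335858, had no peak in DKO and 6.39 and 7.95 in Wt. The Txnip start region, chr3:96557704-96558009, covers the repeated CACGNG, with no peak in DKO and 3.98 and 4.73 in Wt. The Il1a start region, chr2:129309944-129310085, had no peak in DKO and 5.03 and 4.71 in Wt, and covers the TATAAA of that gene. A stronger region on the far side of Il1a, chr2:129296997-129297463, lay within the spans of Ckap2l and Gm14023 and had 4.68 in DKO replicate 2, no peak in DKO replicate 1, and 11.7 and 11.6 in the Wt lists.

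Gained regions were found near 4 members. Inside Nek7, chr1:138538297-138538540 had fold enrichments of 9.11 and 4.83 in DKO replicates 1 and 2 and no peak in Wt. Within the spans of both Il18 and Tex12, chr9:50561160-50561418 had 4.72 and 4.57 in DKO and no peak in Wt. It was centred at -21 bases from the Tex12 start and 6589 bases from the Il18 start. Upstream of Casp1, chr9:5288857-5289101 had 5.06 and 4.57 in DKO and no peak in Wt. Beside Gsdmd, chr15:75875704-75875948 had 3.92 and 4.33 in DKO and no peak in Wt. With peaks of a -log10 q of at least 5 alone, 0 of these regions remained gained.

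Cdx2 binding was read from the single ChIP library, labelled Wt and tagged untreated, whereas the Wt ATAC libraries were tamoxifen treated. At least 1 Cdx2 peak lay within 10 kb of the span in 5 of the 10 genes, Casp1, Casp4, Gsdmd, Il18 and Nek7, against 18.1% of 16312 table genes with a span. Longer spans hold more peaks by their length, and Nek7, at 135921 bases, is the longest of the members. Of these 5 genes, Casp1 was lower, Nek7 higher and the other 3 passed in neither direction. With Cdx2 peaks of a -log10 q of at least 5 alone, 4 members had a peak within 10 kb. Casp4 dropped out, as its peak had a -log10 q of 3.91. Among the members that rose, Il1b, Il1rn and Txnip had no Cdx2 peak within 50 kb, where 35.6% of table genes had one, and the nearest to Il1a lay 45137 bases from it. For Pycard, which fell, the nearest lay 38450 bases away. Over all table genes a Cdx2 peak within 10 kb was found for 18.1% of those called higher, 22.7% of those called lower and 16.7% of the rest.

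At the Casp1 and Casp4 pair, 4 Cdx2 peaks were listed. The peak nearest to the Casp1 start, chr9:5296735-5297027, was centred at -1636 bases, counted from that start, with a fold enrichment of 5.63 and a -log10 q of 8.09. It overlapped an ATAC peak in Wt replicate 1 (fold enrichment 5.25) and in no other list. The strongest, chr9:5286089-5286377, centred at -12284 bases, had a fold enrichment of 12.4, above 98.7% of all Cdx2 peaks, and overlapped no ATAC region. A weaker peak beside it, chr9:5286521-5286967 (fold enrichment 4.37), overlapped a lost region. The fourth, chr9:5332591-5332791, lay within Casp4, 23831 bases from its start, with a fold enrichment of 4.61. It overlapped the lost region chr9:5332470-5332833, which had no peak in DKO and 6.92 and 9.17 in Wt.

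**Figure D4:**
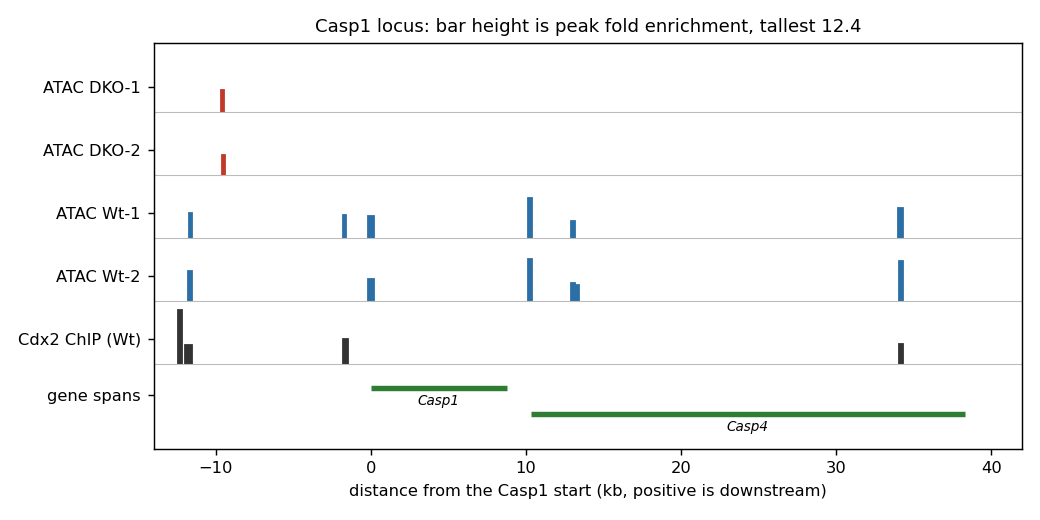
ATAC peaks in DKO and Wt libraries and Cdx2 ChIP peaks (rows) by distance from the Casp1 start (x axis, kb), with bar height giving the authors' fold enrichment up to 12.4 and narrow peaks widened to be seen. The DKO lists hold a peak only upstream of Casp1, with a fold enrichment of 5.06 and 4.57, and the Wt lists hold peaks at the starts of both genes and at the Cdx2 peak within Casp4.

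The remaining Cdx2 peaks lay at Gsdmd, Il18 and Nek7. Beyond one end of the Gsdmd span, 947 bases away, chr15:75868355-75868600 had a fold enrichment of 4.78 and overlapped the lost region chr15:75868276-75868651, with no peak in DKO and 6.19 and 6.63 in Wt. Within Il18, chr9:50561779-50562020 had a fold enrichment of 6.53 and lay 7199 bases from the Il18 start and at -631 bases from that of Tex12, a meiosis gene. It overlapped a lost region, chr9:50561815-50561943, with no peak in DKO and 5.69 and 3.76 in Wt. The gained region at the Tex12 start lay beside it.

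Nek7 held 3 Cdx2 peaks inside its span. The strongest, chr1:138575625-138575920, had a fold enrichment of 10.1, above 95.8% of Cdx2 peaks, and overlapped no ATAC region, although a lost region, chr1:138576431-138576573, lay close by. The peak chr1:138530622-138530887 (fold enrichment 6.48) overlapped a region listed in Wt replicate 1 alone, and chr1:138528943-138529242 (4.51) overlapped none. In all, 5 of the 7 Cdx2 peaks within 10 kb of a member overlapped an ATAC region and 3 a lost one, against 45.8% and 30.2% of the 5100 Cdx2 peaks.

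**Figure D5:**
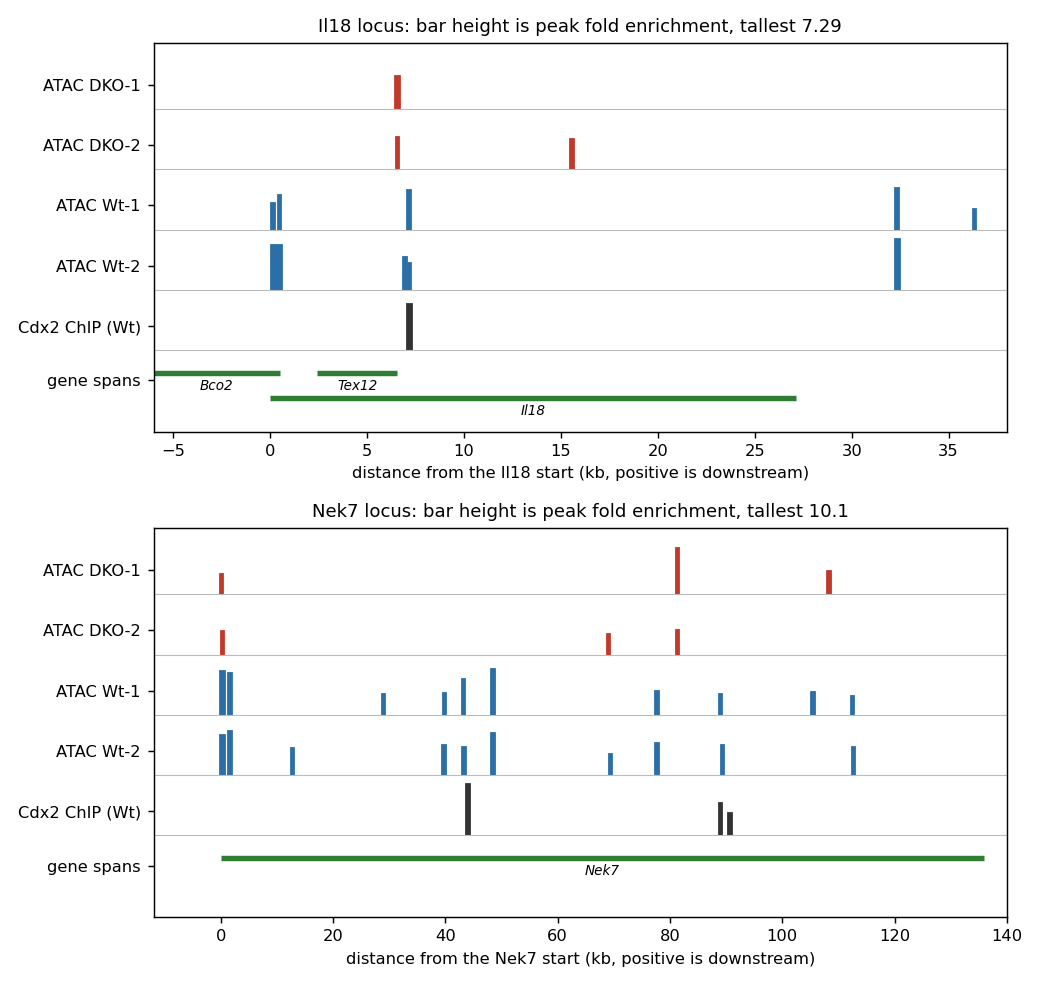
ATAC peaks in DKO and Wt libraries and Cdx2 ChIP peaks (rows) by distance from the start of Il18 (upper panel) and Nek7 (lower panel), in kb, with bar height giving the authors' fold enrichment and narrow peaks widened to be seen. Within Il18 the peaks in both DKO lists (fold enrichment 4.72 and 4.57), at the Tex12 start, lie beside the Wt and Cdx2 peaks, and in Nek7 the start region is listed in all 4 libraries.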

How the data were processed

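RNA-seq (2 DKO, 2 Wt), ATAC-seq (2 DKO, 2 Wt) and Cdx2 ChIP-seq (1 Wt) libraries were grouped by their titles. Per the submitters' processing notes, DESeq2, Salmon 1.3.0, MACS2, fastp, Bowtie2 and BWA were used with mm10 and GRCm38, in unstated roles. The sources used here do not give the ChIP control, tool settings or strand use. The deposited transcript files give estimated counts, used for depth only. No table used here pairs transcript IDs with genes, so the planned gene-level test, left-out RNA libraries and the replicate block were not run. The gene table holds, per the file headers, a mean normalized signal, a log2 fold change with its SE, and p-values by the authors. Recomputing a Benjamini-Hochberg adjustment from its p returned its adjusted p for all 17511 genes. Peak lists hold the fold enrichment ratio and the -log10 q that the authors' caller gave each peak, per library.

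Peaks on assembled chromosomes were joined where they shared at least 1 bp, in Python 3.11.15 with pandas 2.3.3, and steps were tested on simulated data. Gene spans and starts came from RefSeq GRCm38.p6, where 16312 table genes (93.2%) matched a span by symbol. Members and gene lists were chosen with earlier results of these data known. The naming rule took all members, Cdx1, Cdx2, Trim31 and Nlrp3, up to 4 called genes of each list by smallest adjusted p, and Cdx2 peaks and lost or gained regions at the members.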

Additional observations from a re-analysis of the deposited data

How the results depend on the processing

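The authors' deposited calls of members held at 5 higher and 2 lower in DKO with a 2-fold minimum. With an adjusted p under 0.01, or with p readjusted over genes averaging 50 normalized counts or more, the higher count was 4, since Il1a did not pass or was not among the genes kept, and the lower count stayed at 2. No paired analysis was possible because no gene-level value per library could be made and peak lists give no test.

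Counts of ATAC regions followed the window and the lists. Without padding the gained count was 2, and with 50 kb the counts were 52 lost, 3 shared and 55 mixed. At a -log10 q of at least 5 they were 0 gained, 14 lost, 0 shared and 11 mixed. Leaving out 1 ATAC library gave 23 to 32 lost, 4 to 6 gained, 1 to 3 shared and 6 to 16 mixed regions, as fewer lists must then hold a peak. The mixed count fell to 6 without Wt replicate 1 and without Wt replicate 2, and the shared count was 3 without DKO replicate 1. Members with a Cdx2 peak numbered 3 without padding and 4 at a -log10 q of at least 5. Cdx2 peaks numbered 14 with 50 kb, and those overlapping an ATAC region numbered 3 when at least 0.5 of the peak had to be covered. With 1 ChIP library and short DKO lists, a peak that is not listed is not shown to be absent.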

Other observations

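Genes next to the members were read from the same deposited table. Of 26 table genes whose spans lie within 50 kb of a member, 3 were higher, 5 lower and 18 passed in neither direction in the authors' deposited table. Over all genes, 18.5% were called higher and 18.3% lower, so these counts are not read as a trait of the loci. The genes named here were chosen after their values were seen. Bco2, a carotenoid-cleaving oxygenase whose span overlaps the Il18 start region, had a log2 fold change of -1.57 ± 0.31 with an adjusted p of 1.75e-06 in the authors' deposited table. Near Gsdmd, Naprt, an enzyme of NAD synthesis, was at -1.38 ± 0.25 and Pycrl at -1.26 ± 0.27 in the authors' deposited table, and a Cdx2 peak lay within Naprt. Prss36 near Pycard was at -3.88 ± 1.13 and Lix1l near Txnip at -2.48 ± 0.66 in the authors' deposited table. Higher neighbours included, near Il18, Nkapd1 at 1.67 ± 0.26 and Plet1 at 0.65 ± 0.24 in the authors' deposited table. Casp12, on the far side of Casp4, had a log2 fold change of 0.63 ± 0.59 with an adjusted p of 0.308 in the authors' deposited table.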
